A study of Mus musculus with 4 samples.

Results

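Transcripts for nucleolar ribosome assembly and for the RNA exosome were compared between Mdivi-1-treated and control mouse embryos at the late 2-cell (2C) stage. The genes were taken by symbol. They were every row whose symbol starts with Nop, Nol, Utp, Rrp, Noc or Exosc followed by a number, *Mphosph10*, *Imp3* and *Imp4*, and 14 further genes (*Fbl*, *Ncl*, *Npm1*, *Dkc1*, *Nhp2*, *Gar1*, *Bop1*, *Pes1*, *Nat10*, *Rrs1*, *Wdr12*, *Ebna1bp2*, *Nip7* and *Gnl3*). This gave 67 genes of the 26022 in the table. The symbol rule uses no measured value, but it was set with earlier results of these data known. All 67 passed the filter on low counts, which kept 14259 genes of the table. The zygotes came from superovulated ICR females mated with ICR males, and ICR is an outbred strain. They were cultured for 16 h in KSOM medium with 200 μM Mdivi-1 or without it. Mdivi-1 is a small molecule used to inhibit DRP1, the GTPase that divides mitochondria, and no source used here states whether control medium held its solvent. RNA of 8 to 10 embryos for each group was amplified by Smart-Seq2, which copies polyadenylated RNA of very few cells over its full length, without strand or molecule tags. There were 2 Mdivi-1 libraries and 2 control libraries. Since no label ties a library to its own litter or culture, p-values measure only how far these libraries spread, which may be technical.

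Ribosomes are assembled in the nucleolus, where a long precursor RNA is transcribed, modified at many bases by small nucleolar ribonucleoproteins (snoRNPs), folded and cut while many assembly factors join and leave. The small subunit processome builds the precursor of the 40S subunit, a separate set of factors builds the 60S subunit, and the RNA exosome, a barrel of subunits that carries nucleases, trims the precursor RNA and degrades its spacers. Mouse embryos inherit inactive nucleolus precursor bodies from the oocyte, which turn into working nucleoli as synthesis of ribosomal RNA resumes during cleavage.

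The libraries held 17712075 and 18500928 counts in Mdivi-1-treated embryos, and 20077326 and 18279626 counts in control embryos. Transcripts of the mitochondrial genome made up 14.2% to 15.98% of the counts with Mdivi-1 and 15.1% to 18.8% in controls. All 10 of the 2C markers were measured, with summed levels of 2929 and 3668 CPM (counts scaled to the library size) in Mdivi-1-treated embryos and 2021 and 3368 CPM in control embryos. The 16 oocyte and maternal markers summed to 20124 and 20596 CPM with Mdivi-1, and to 15850 and 26004 CPM in controls. Blastocyst markers summed to 31.8 and 36.6 CPM with Mdivi-1 and 44.7 and 58.9 CPM in controls, with *Cdx2* and *Sox17* at 0 in every library. Without *Tfap2c*, the most abundant, these markers summed to 5.58 and 7.51 CPM with Mdivi-1 and 3.55 and 8.92 CPM in controls. Of the 8, 1 had both Mdivi-1 libraries above both controls and 1 had both below. Markers of cumulus and granulosa cells summed to 22.5 and 24.4 CPM with Mdivi-1 and to 20.3 and 35.0 CPM in controls, with *Has2*, *Ptx3* and *Amh* at 0. Those of sperm summed to 6.07 and 2.76 CPM with Mdivi-1 and 2.59 and 1.51 CPM in controls, with *Tnp2* at 0.

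Ribosome assembly and exosome transcripts were mostly at lower levels in Mdivi-1-treated embryos. The 67 genes took 0.676% and 0.737% of all counts in the Mdivi-1 libraries, against 1.04% and 1.02% in the control libraries. On the CPM scale, normalized by the trimmed mean of M values (TMM), they summed to 6423 and 7108 CPM with Mdivi-1 and to 9459 and 12175 CPM in controls. Their median log2 CPM was 5.32 and 5.52 in Mdivi-1-treated embryos, and 5.92 and 6.30 in control embryos. By these 3 measures the Mdivi-1 libraries lay below both controls. Of the 67 genes, 63 had a negative log2 fold change (94%), while 48.7% of all genes tested did. The other 4 were positive (5.97%), as were 51.3% of all genes. The median log2 fold change of the 67 genes was -0.58, against 0.03 for all genes, with a range from -1.90 for *Rrp1b* to 1.66 for *Nol4*. Over all alternatives, 45 of the 67 were negative throughout, and without control replicate 1 the count of negative values was 54. The median standard deviation between libraries of a group was 0.35 on the log2 scale. In bulk RNA, fewer cells that make a transcript and less of it per cell cannot be told apart. Several 2C and oocyte markers were higher in the libraries where the 67 genes were lower. Of the 2C markers, 6 of 10 had both Mdivi-1 libraries above both controls and 1 had both below, with a median log2 fold change of 1.08. Without the most abundant, *Obox6*, they summed to 2499 and 3019 CPM with Mdivi-1 and to 1016 and 1937 CPM in controls. Of the oocyte and maternal markers, 8 of 16 were above both controls and 1 was below, with a median log2 fold change of 0.64. Without *Dppa3* they summed to 6870 and 9731 CPM with Mdivi-1 and to 2809 and 4772 CPM in controls. The full sums overlapped between the groups, and those without these genes, a choice made after the values were seen, did not. Their part in the lower levels of the 67 genes was not tested.

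For single genes, edgeR's quasi-likelihood test called 0 of the 67 at an adjusted p under 0.05, and 0% of all 14259 genes tested, whose smallest adjusted p was 0.109. When p was not adjusted, 21 were lower at a p under 0.05 (31.3%, against 7.64% of all genes) and 0 were higher (against 8.27% of all genes). DESeq2 on the same counts called 11 as lower at an adjusted p under 0.05 (16.4%, against 2.92% of the 13706 genes it gave an adjusted p) and 0 as higher (against 3.41%). All 11 were more than 2-fold lower by DESeq2, against 2.84% of genes (3.36% were more than 2-fold higher). Limma-voom called 1 as lower (*Nop58*, against 0.54% of all genes) and 0 as higher (against 0.877%). The likelihood ratio test of edgeR called 7 as lower (against 2.51%) and 0 as higher (against 3.59%). Both Mdivi-1 libraries lay below both controls for 37 genes (55.2%, against 23.9%) and above both controls for 2 (2.99%, against 26.1%). These counts are on the TMM scale, where the factor of 0.834 for control replicate 2 raised its CPM. The share of all genes depended on their level. Among genes averaging at least 10 CPM, the Mdivi-1 libraries were both below both controls for 36 of 62 of these genes (58.1%), against 31% of all 7096 such genes. At this level 59 of the 62 were negative (against 53.8%), 21 were lower at an unadjusted p (against 12.7%) and 11 were lower by DESeq2 (against 4.92%). With 2 libraries a group, an exact two-sided permutation test of a single value cannot go below p = 0.333. The DESeq2 calls changed with the libraries used, with 15 members lower without control replicate 1, 2 without control replicate 2 (*Nop58* and *Utp11*), 0 without Mdivi-1 replicate 1 and 2 without Mdivi-1 replicate 2 (*Nop58* and *Rrp1b*), where 5.24%, 1.6%, 0.29% and 1.26% of all genes were lower. The count at an unadjusted p by edgeR was 10 without Mdivi-1 replicate 1 and 13 without Mdivi-1 replicate 2, against 3.52% and 5.46% of all genes.

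**Figure D1:**
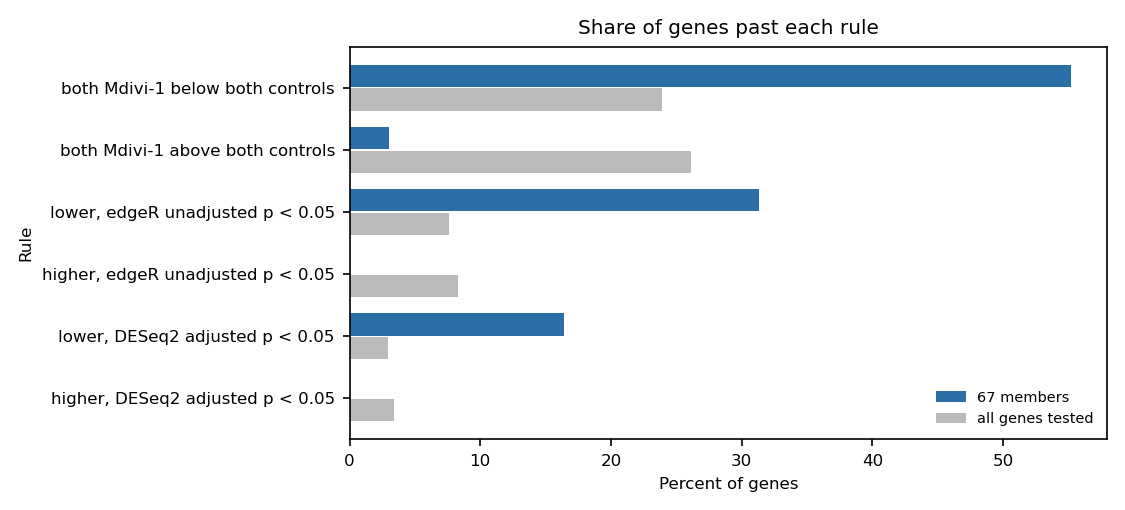
Percent of genes (x axis) past each rule (y axis), for the 67 ribosome assembly and exosome genes (blue) and all genes tested (grey). Both Mdivi-1 libraries were below both controls for 55.2% of the 67 genes and 23.9% of all genes, and above both controls for 2.99% and 26.1%.

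The 67 genes fall into roles, and each of the 6 roles in ribosome assembly and the exosome had a negative median log2 fold change. It was -0.51 for 3 box C/D snoRNP proteins, -0.71 for 4 box H/ACA snoRNP proteins, -0.58 for 25 genes of the small subunit processome and 40S assembly, -0.72 for 19 genes of 60S assembly, -0.51 for 3 other nucleolar proteins and -0.61 for 10 exosome subunits. The remaining 3 genes, matched by name alone, had a median of 0.67. Of the 18 genes whose log2 fold change was more than 2-fold lower (26.9%, against 14.5% of all genes), none was among the 3 nucleolar proteins or the 3 genes matched by name.

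**Figure D2:**
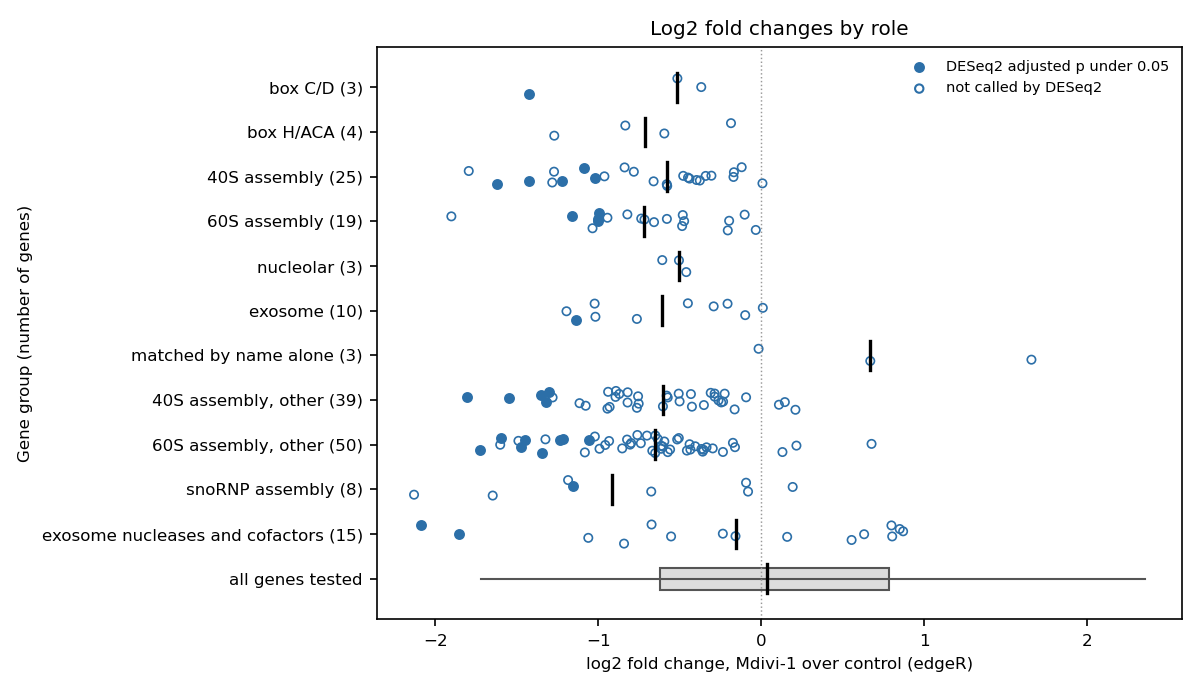
Log2 fold change of Mdivi-1 over control by edgeR (x axis) for each gene as a circle, by group with the number of genes (y axis). Filled circles have a DESeq2 adjusted p under 0.05, black bars are medians, and the box gives the quartiles of all genes tested with whiskers to their 5th and 95th percentiles. The medians of the 6 assembly and exosome roles lie between -0.72 and -0.51, against 0.03 for all genes.

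The box C/D snoRNP, which places methyl groups on the sugars of ribosomal RNA, has *Nop58* and *Nop56* as its paired scaffold proteins and the methyltransferase fibrillarin (*Fbl*). *Nop58* (ENSMUSG00000026020) lies on chromosome 1 from 59684971 to 59719044 on the forward strand of GRCm38, with 17 exon blocks. It had 49.9 and 80.1 CPM in Mdivi-1-treated embryos, against 165 and 185 CPM in control embryos, with no overlap between the groups. Its log2 fold change was -1.43 ± 0.34 (SE, edgeR adjusted p = 0.162), and it was lower by DESeq2 (adjusted p = 0.00426) and by limma-voom (adjusted p = 0.0455). Its paralog *Nop56* (chromosome 2, 130274430 to 130279313) had 85.1 and 166 CPM with Mdivi-1 and 195 and 164 CPM in controls. The groups overlapped for *Nop56*, since Mdivi-1 replicate 2 lay between the controls, and the log2 fold change was -0.51 (edgeR adjusted p = 0.570). *Fbl* had 24.5 and 28.6 CPM with Mdivi-1 against 26.8 and 41.8 CPM in controls, which also overlapped (log2 fold change -0.37, edgeR adjusted p = 0.729). Of the 100-base runs of their transcripts, 11.6% for *Nop56* and 15.3% for *Fbl* also occur in transcripts of other genes, so that unique mapping could have lost reads there. *Nop56* and *Nop58* both host small non-coding RNAs in their gene bodies, as do 8 of the 67 genes by the annotation.

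The box H/ACA snoRNP turns uridine of ribosomal RNA into pseudouridine, with dyskerin (*Dkc1*) as its enzyme and *Nhp2*, *Nop10* and *Gar1* as partners. *Gar1* (chromosome 3, 129824912 to 129831396, reverse strand) had 18.7 and 12.6 CPM in Mdivi-1-treated embryos, against 28.4 and 47.2 CPM in control embryos. Both Mdivi-1 libraries were below both controls, with a log2 fold change of -1.27 ± 0.44 (SE, edgeR adjusted p = 0.240, DESeq2 adjusted p = 0.127). The same held for *Nop10*, with 506.5 and 506.2 CPM with Mdivi-1 against 566 and 1240 CPM in controls (log2 fold change -0.83, edgeR adjusted p = 0.370). With each library left out in turn, the log2 fold change of *Nop10* ranged from -1.30 to -0.19. *Nhp2* was also below both controls, with 467 and 391.8 CPM with Mdivi-1 against 660.5 and 636 CPM in controls (log2 fold change -0.59, edgeR adjusted p = 0.376). *Dkc1* had 236 and 406 CPM with Mdivi-1 and 351 and 379 CPM in controls, with the Mdivi-1 libraries on either side of the controls and a log2 fold change of -0.19. Per exonic length, the 4 proteins that share 1 particle had unequal transcript levels. TPM divides counts by exonic length, here the union of all annotated exons, before scaling. *Nop10* averaged 995 TPM with Mdivi-1 and 1467 TPM in controls, and *Nhp2* averaged 815 TPM with Mdivi-1 and 1112 TPM in controls. *Dkc1* averaged 171 TPM with Mdivi-1 and 172 TPM in controls, and *Gar1* had the lowest level, at 19.8 TPM with Mdivi-1 and 40.8 TPM in controls.

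**Figure D3:**
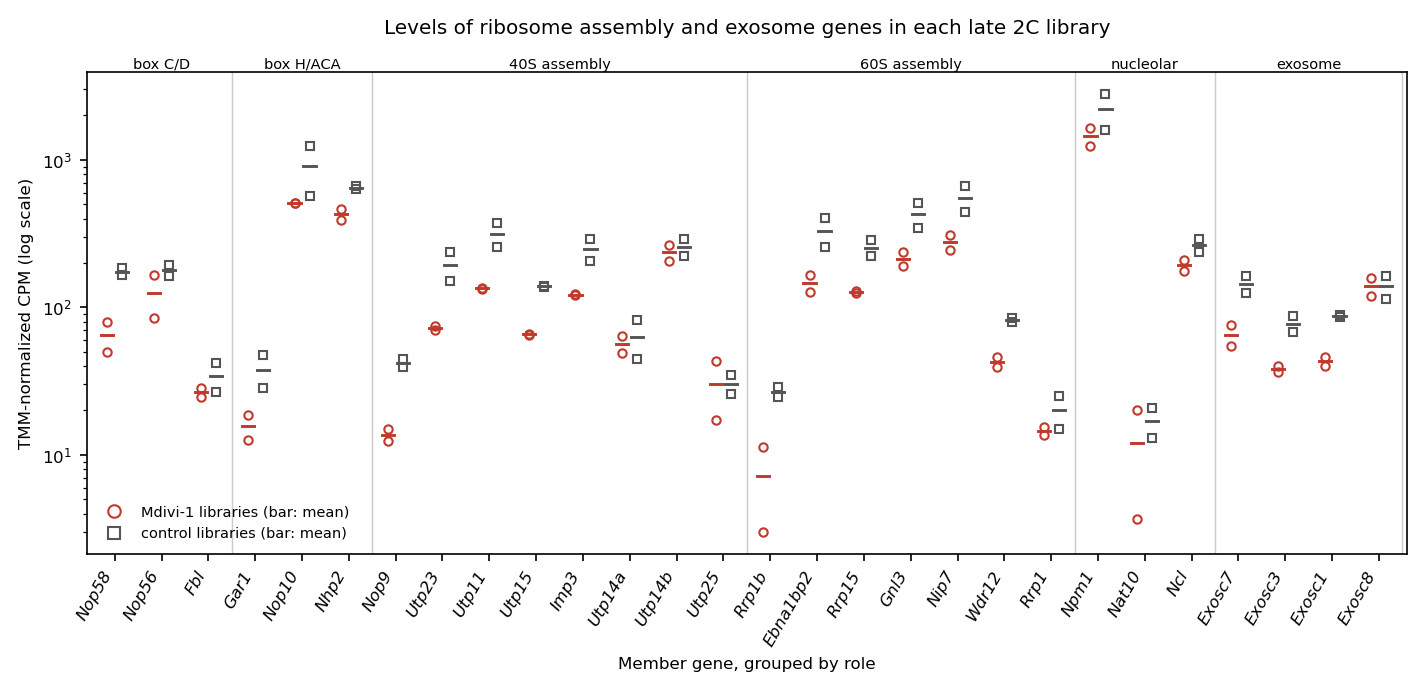
TMM-normalized CPM (y axis, log scale) of named ribosome assembly and exosome genes (x axis, grouped by role) in each Mdivi-1 library (red circles) and control library (grey squares), with bars at the means of 2 libraries. *Nop58*, *Nop9*, *Utp15* and *Rrp1b* show both Mdivi-1 libraries below both controls, and *Exosc8*, *Utp14b* and *Utp25* show groups that overlap.

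The small subunit processome and other 40S factors made up the largest role, with 24 of 25 log2 fold changes negative. Of these, 9 were lower at an unadjusted p under 0.05 by edgeR (against 7.64% of all genes). By DESeq2 at an adjusted p under 0.05, 5 were lower (against 2.92%). Both Mdivi-1 libraries were below both controls for 15 (against 23.9%). *Utp23* (ENSMUSG00000022313, chromosome 15, 51877429 to 51884614), whose yeast homolog acts in early cleavage of the precursor RNA, had 70.4 and 74.7 CPM with Mdivi-1, against 151 and 238 CPM in controls. Its log2 fold change was -1.42 ± 0.33 (SE), with an edgeR adjusted p of 0.159, the smallest of the 67 genes, and a DESeq2 adjusted p of 0.00333. The antisense gene *Gm34678* covers 11.5% of its exon bases, and these libraries keep no strand. *Nop9* (chromosome 14, 55745693 to 55755500), an RNA-binding protein of 40S assembly in yeast, had 14.9 and 12.4 CPM with Mdivi-1 and 39.2 and 44.9 CPM in controls. The groups were well apart, with a log2 fold change of -1.62 ± 0.38 (SE, edgeR adjusted p = 0.160, DESeq2 adjusted p = 0.0176). Here 29.9% of the exon bases lie in *Cideb* on the other strand, and how reads there were counted is not known.

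*Utp11*, a processome component, had 133 and 135 CPM in Mdivi-1-treated embryos, against 258 and 370 CPM in control embryos. Both Mdivi-1 libraries were close together and below the controls (log2 fold change -1.22 ± 0.31 SE, edgeR adjusted p = 0.173, DESeq2 adjusted p = 0.00659). *Utp15* belongs to the UTP-A complex, which binds the precursor RNA first. It had 65.2 and 65.8 CPM with Mdivi-1 and 139.8 and 138 CPM in controls. Each group varied by less than 2 CPM on this TMM scale only. In TPM, without TMM, the controls were further apart, at 56.8 and 36.5, with both Mdivi-1 libraries still below them. The log2 fold change of *Utp15* was -1.09 ± 0.29 (SE, edgeR adjusted p = 0.178, DESeq2 adjusted p = 0.0251). The other UTP-A genes among the 67, *Utp4* and *Nol11*, also had both Mdivi-1 libraries below both controls. *Utp4* had 85.2 and 108 CPM with Mdivi-1, against 150.1 and 226 CPM in controls (log2 fold change -0.96), and *Nol11* had 128 and 133 CPM with Mdivi-1, against 182 and 161 CPM in controls (log2 fold change -0.40). *Imp3*, a single-exon gene whose protein pairs U3 RNA with the precursor, had 123 and 120.5 CPM with Mdivi-1 against 206 and 289 CPM in controls. It was lower by DESeq2 (adjusted p = 0.0337), with a log2 fold change of -1.02 ± 0.31 (SE, edgeR adjusted p = 0.203). Among its partners around U3, the Mdivi-1 libraries were also below both controls for *Mphosph10* and *Rrp9*, but not for *Imp4*.

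Other 40S genes had similar values in both groups. *Utp14a*, a processome factor on the X chromosome, had 48.8 and 63.8 CPM with Mdivi-1 and 44.6 and 82.2 CPM in controls (log2 fold change -0.17, edgeR adjusted p = 0.895). *Utp14b*, a retrocopy of *Utp14a* known for its need in male germ cells, had 266 and 207 CPM with Mdivi-1 and 291 and 223 CPM in controls (log2 fold change -0.12, edgeR adjusted p = 0.910). Per exonic length the autosomal retrocopy averaged 66.9 TPM with Mdivi-1 and 67.3 TPM in controls, and its X-linked parent 29.8 TPM with Mdivi-1 and 28.2 TPM in controls. Both overlapped between the groups. *Utp25* had 43.6 and 17.3 CPM with Mdivi-1 against 34.8 and 25.8 CPM in controls, with a log2 fold change of 0.01. Its Mdivi-1 libraries stood on either side of the controls, and the sign of this value turned with the scaling.

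All 19 genes of 60S assembly had a negative log2 fold change (against 48.7% of all genes). At an unadjusted p under 0.05 by edgeR, 7 were lower (against 7.64%), and 4 were lower by DESeq2 (against 2.92%). Both Mdivi-1 libraries were below both controls for 12 of them (against 23.9%). *Rrp15* (chromosome 1, 186720978 to 186749358) had 125 and 129 CPM with Mdivi-1, against 223 and 285 CPM in controls. It was lower by DESeq2 (adjusted p = 0.0305), with a log2 fold change of -1.0 ± 0.29 (SE, edgeR adjusted p = 0.200). *Ebna1bp2*, the homolog of a yeast factor of early 60S assembly, had 127 and 166 CPM with Mdivi-1 against 255 and 401 CPM in controls. Its log2 fold change was -1.16 ± 0.34 (SE, edgeR adjusted p = 0.200, DESeq2 adjusted p = 0.0193). The GTPase nucleostemin (*Gnl3*) had 189 and 239 CPM with Mdivi-1 and 344 and 513 CPM in controls. It too was lower by DESeq2 (adjusted p = 0.0395), with a log2 fold change of -1.0 ± 0.33 (SE, edgeR adjusted p = 0.225). *Nip7*, needed for 60S subunits in yeast, had 246 and 309 CPM with Mdivi-1, against 443 and 664 CPM in controls. Its groups did not overlap either (log2 fold change -1.0 ± 0.34 SE, edgeR adjusted p = 0.231, DESeq2 adjusted p = 0.0371).

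The most negative log2 fold change of the 67 genes by edgeR belonged to *Rrp1b*. It had 3.01 and 11.3 CPM with Mdivi-1, against 24.6 and 28.9 CPM in controls, and a log2 fold change of -1.90 with a wide standard error of 0.66 (edgeR adjusted p = 0.236, DESeq2 adjusted p = 0.0738). Mdivi-1 replicate 1 was the lower, and the value was -1.25 without it and -3.17 without Mdivi-1 replicate 2. Its paralog *Rrp1* had 15.4 and 13.6 CPM with Mdivi-1 and 25.1 and 15.03 CPM in controls, with groups that overlapped (log2 fold change -0.47, edgeR adjusted p = 0.699). The difference between the paralogs was not tested. *Wdr12*, *Pes1* and *Bop1* encode the 3 proteins of the PeBoW complex of 60S assembly. *Wdr12* had 39.5 and 45.8 CPM with Mdivi-1 against 79.0 and 85.2 CPM in controls, without overlap (log2 fold change -0.94 ± 0.31 SE, edgeR adjusted p = 0.218, DESeq2 adjusted p = 0.110). *Bop1* had 15.4 and 23.5 CPM with Mdivi-1 and 29.7 and 28.3 CPM in controls, also without overlap (log2 fold change -0.58). *Pes1*, at 28.4 and 32.9 CPM with Mdivi-1 and 25.6 and 40.4 CPM in controls, had both Mdivi-1 libraries between the controls.

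The 3 other nucleolar proteins had log2 fold changes from -0.61 to -0.46. *Npm1*, the nucleolar chaperone nucleophosmin, had the highest level of the 67 genes per exonic length, with a mean of 1182 TPM with Mdivi-1 and 1520 TPM in controls. It had 1234 and 1649 CPM in Mdivi-1-treated embryos and 1597 and 2796 CPM in control embryos. The groups overlapped, with a log2 fold change of -0.61 ± 0.39 (SE, edgeR adjusted p = 0.504), and 12.7% of its 100-base runs occur in other transcripts. *Ncl*, which encodes nucleolin, had 176 and 210 CPM with Mdivi-1 against 292 and 239 CPM in controls, without overlap (log2 fold change -0.46, edgeR adjusted p = 0.503). *Nat10*, the acetyltransferase of ribosomal RNA, had 3.65 and 20.3 CPM with Mdivi-1 and 20.9 and 13.1 CPM in controls. Its Mdivi-1 libraries lay far apart, and the log2 fold change of -0.51 (edgeR adjusted p = 0.826) turned positive without Mdivi-1 replicate 1, at 0.25.

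The RNA exosome has a ring of 6 subunits (*Exosc4* to *Exosc9*), a cap of 3 (*Exosc1* to *Exosc3*) and the nuclease *Exosc10*, and its transcripts differed among themselves. The median log2 fold change was -0.37 for the ring and -1.02 for the cap, a grouping made after the values were seen. *Exosc7* (ENSMUSG00000025785, chromosome 9, 123113215 to 123136129), of the ring, had 54.3 and 76.4 CPM in Mdivi-1-treated embryos, against 124 and 163 CPM in control embryos. It was the exosome subunit that DESeq2 called as lower (adjusted p = 0.0337), with a log2 fold change of -1.14 ± 0.33 (SE, edgeR adjusted p = 0.198). In the cap, which binds the RNA that enters the barrel, *Exosc3* had 39.8 and 36.7 CPM with Mdivi-1 and 87.1 and 68.4 CPM in controls (log2 fold change -1.02 ± 0.32 SE, edgeR adjusted p = 0.213, DESeq2 adjusted p = 0.0869). *Exosc1* had 40.1 and 46.3 CPM with Mdivi-1 against 85.7 and 89.4 CPM in controls (log2 fold change -1.02 ± 0.30 SE, edgeR adjusted p = 0.200, DESeq2 adjusted p = 0.0729). Neither cap subunit overlapped between the groups, whereas the third, *Exosc2*, did, with 23.2 and 35.1 CPM with Mdivi-1 and 30.3 and 37.1 CPM in controls. *Exosc10* had 30.3 and 49.7 CPM with Mdivi-1 and 53.7 and 82.1 CPM in controls, without overlap (log2 fold change -0.76, edgeR adjusted p = 0.383).

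*Exosc8* had the smallest difference in the ring. It had 159 and 120 CPM in Mdivi-1-treated embryos and 115 and 163 CPM in control embryos, with full overlap and a log2 fold change of 0.01 ± 0.32 (SE, edgeR adjusted p = 0.995), whose sign turned with the scaling. Per length it had the highest mean level of the exosome in Mdivi-1-treated embryos, at 70.0 TPM with Mdivi-1 against 60.3 TPM in controls, and *Exosc3* had the highest in controls, at 62.9 TPM with Mdivi-1 and 118 TPM in controls. *Exosc5* had the lowest TPM, at 2.06 with Mdivi-1 and 4.49 in controls. Its union of annotated exons is 6268 bases, and the rank depends on this length. In mean CPM, *Exosc5* was at 5.94 with Mdivi-1 and 13.6 in controls. *Exosc4* was at 7.99 and 10.9 CPM, and *Exosc6* at 7.95 and 8.51 CPM, in the same order. The subunits are thought to sit in the barrel in equal numbers, while their transcript levels differed in both groups, by an amount that depends on the lengths used. *Exosc6* lies wholly inside the exons of *Aars* in GENCODE M21 (100% of its bases). It had 197 and 102 raw counts with Mdivi-1 and 175 and 138 in controls. How reads were assigned between *Exosc6* and *Aars* is not known.

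**Figure D4:**
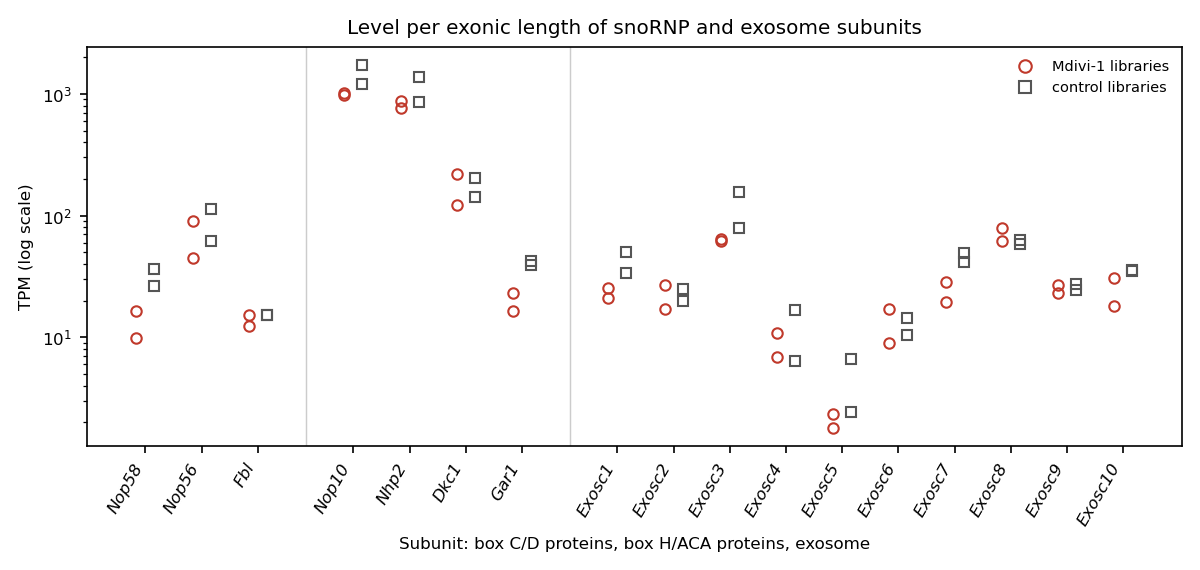
Level per exonic length in TPM (y axis, log scale) of box C/D proteins, box H/ACA proteins and exosome subunits (x axis) in each Mdivi-1 library (red circles) and control library (grey squares). *Nop10* and *Nhp2* are highest, and *Exosc5* is lowest. The libraries of the groups overlap for *Nop56*, *Nhp2*, *Dkc1*, *Exosc2*, *Exosc4*, *Exosc6*, *Exosc8* and *Exosc9*.

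The 3 genes matched by name alone have no established role in ribosome assembly. *Nol4l* had 25.2 and 18.2 CPM in Mdivi-1-treated embryos and 17.4 and 9.84 CPM in control embryos, with both Mdivi-1 libraries above both controls (log2 fold change 0.67 ± 0.49 SE, edgeR adjusted p = 0.570). *Nol4* was near its detection limit, with 2.36 and 2.45 CPM with Mdivi-1 and 1.502 and 0 CPM in controls, and its log2 fold change of 1.66 has a standard error of 1.96 (edgeR adjusted p = 0.763). *Nol3*, which encodes an inhibitor of cell death, had 0.161 and 2.03 CPM with Mdivi-1 and 0.910 and 1.31 CPM in controls. Without these 3 genes, 62 of 64 log2 fold changes were negative, with a median of -0.60.

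Most other genes of ribosome assembly, which the symbol rule did not take, also had negative log2 fold changes. Of 39 other 40S factors, 36 log2 fold changes were negative, at a median of -0.60, with 12 lower at an unadjusted p under 0.05 by edgeR (against 7.64% of all genes) and 5 lower by DESeq2 (against 2.92%). Of 50 other 60S factors, 47 were negative (median -0.65), with 17 and 8 lower by these measures. Among them *Rpf2*, which joins the 5S ribosomal RNA to the 60S precursor together with *Rrs1*, had 199 and 195 CPM with Mdivi-1 against 458 and 844 CPM in controls. It was lower by DESeq2 (adjusted p = 0.000126), with a log2 fold change of -1.73 ± 0.37 (SE, edgeR adjusted p = 0.151). The helicase gene *Ddx47* had 31.0 and 37.3 CPM with Mdivi-1 against 82.7 and 117 CPM in controls (log2 fold change -1.55 ± 0.33 SE, DESeq2 adjusted p = 0.00359). *Dnttip2* and *Gnl3l* were also lower by DESeq2, with log2 fold changes of -1.30 and -1.47. Of 8 snoRNP assembly factors, 7 were negative (median -0.92). *Znhit6*, which helps to build box C/D snoRNPs, had 158 and 128 CPM with Mdivi-1 and 271.5 and 365 CPM in controls (log2 fold change -1.16 ± 0.31 SE, DESeq2 adjusted p = 0.0115). *Naf1*, which does so for box H/ACA snoRNPs, had 7.73 and 5.47 CPM with Mdivi-1 and 20.66 and 20.73 CPM in controls (log2 fold change -1.65 ± 0.50 SE, DESeq2 adjusted p = 0.0874).

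The 15 nucleases and cofactors of the exosome were divided, with 8 negative and 7 positive log2 fold changes, a median of -0.16, and 3 lower (against 7.64% of all genes) and 3 higher (against 8.27%) at an unadjusted p under 0.05 by edgeR. *Zfc3h1*, which leads polyadenylated nuclear RNA to the exosome, had 20.8 and 18.5 CPM with Mdivi-1, against 117 and 49.9 CPM in controls (log2 fold change -2.09 ± 0.46 SE, edgeR adjusted p = 0.153, DESeq2 adjusted p = 0.00091). *Wdr61*, a subunit of the SKI complex of the cytoplasmic exosome and of the PAF complex, had 17.4 and 38.0 CPM with Mdivi-1 and 80.7 and 119.5 CPM in controls (log2 fold change -1.85 ± 0.45 SE, edgeR adjusted p = 0.166, DESeq2 adjusted p = 0.00313). Both were lower by DESeq2, and neither overlapped between the groups. The 3 genes on the other side were looked up after the values were seen. *Tent4a*, a poly(A) polymerase, had 302 and 261 CPM with Mdivi-1 and 163 and 145 CPM in controls (log2 fold change 0.87 ± 0.29 SE, edgeR adjusted p = 0.224, DESeq2 adjusted p = 0.0717). *Ttc37*, of the SKI complex, had 174 and 180.5 CPM with Mdivi-1 and 120.5 and 82.5 CPM in controls (log2 fold change 0.80, DESeq2 adjusted p = 0.160). *Rbm7*, of the nuclear exosome targeting complex, had 60.8 and 62.0 CPM with Mdivi-1 and 28.0 and 40.2 CPM in controls (log2 fold change 0.85, DESeq2 adjusted p = 0.258). All 3 had both Mdivi-1 libraries above both controls. Over all 112 of these genes, 98 log2 fold changes were negative (against 48.7% of all genes). DESeq2 gave 111 of them an adjusted p, and called 16 as lower (against 2.92%) and 0 as higher (against 3.41%).

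Promoters were examined because the genes were mostly on the same side of the controls. RefSeq promoters on GRCm38.p6, from 250 bases before to 50 bases after a start, were found for 53 of the 67 genes, 64 promoters in all. The motif CCGGAAG, bound by ETS factors, was in 31.2% of these promoters, against 8.86% of all 32851 promoters of the same length, counting both strands. CACGTG (E-box) was in 20.3% against 7.15%, the NRF1 motif (GCGC, any base, TGCGC) in 15.6% against 4.6%, AAGATGGCG (YY1) in 3.12% against 1.4%, and TATAAA in 7.81% against 13.6%. None of these motifs is contained in another. An exon on the opposite strand lay within the 250 bases before the start for 31.2% of these promoters, against 15.9% of all. The comparison promoters include those of genes that did not pass the low-count filter, and shares among the genes tested were not taken. Since matches in a sequence are not bound sites, these shares describe the promoters only. The stretches below lie before the RefSeq start of *Nip7* (chr8:107056690-107056876, forward strand), *Gar1* (chr3:129831397-129831646, reverse strand), *Nop2* (chr6:125131633-125131882, forward strand) and *Nop58* (chr1:59684756-59684970, forward strand). They are shown 5′ to 3′ on the strand of the gene for 1 DESeq2-called 60S gene, 1 H/ACA gene, 1 gene with both an E-box and an ETS motif and the called gene *Nop58*, which has none of the 5 motifs there. Capitals mark the ETS motif or its reverse complement and the E-box.
Nip7: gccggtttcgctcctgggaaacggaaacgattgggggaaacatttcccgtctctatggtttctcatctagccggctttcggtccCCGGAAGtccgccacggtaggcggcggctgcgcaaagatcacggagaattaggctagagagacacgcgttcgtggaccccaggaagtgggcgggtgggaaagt
Gar1: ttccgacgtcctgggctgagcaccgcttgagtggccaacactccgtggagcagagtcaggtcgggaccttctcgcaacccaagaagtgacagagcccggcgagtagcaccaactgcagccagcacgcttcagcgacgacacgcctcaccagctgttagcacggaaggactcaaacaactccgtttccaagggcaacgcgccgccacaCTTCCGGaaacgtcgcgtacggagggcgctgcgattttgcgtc
Nop2: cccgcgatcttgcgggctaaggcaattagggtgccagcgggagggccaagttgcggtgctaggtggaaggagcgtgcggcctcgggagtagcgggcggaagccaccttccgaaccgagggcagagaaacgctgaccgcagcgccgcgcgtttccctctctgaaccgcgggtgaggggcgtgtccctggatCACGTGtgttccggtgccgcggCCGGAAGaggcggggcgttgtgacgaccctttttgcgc
Nop58: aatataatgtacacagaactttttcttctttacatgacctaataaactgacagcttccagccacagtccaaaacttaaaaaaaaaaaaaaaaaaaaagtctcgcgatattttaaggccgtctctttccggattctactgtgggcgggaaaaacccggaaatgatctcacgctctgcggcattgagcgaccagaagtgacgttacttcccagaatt
*Nop2*, a methyltransferase of ribosomal RNA in 60S assembly, had 27.3 and 50.5 CPM with Mdivi-1 and 70.5 and 57.4 CPM in controls, without overlap, and a log2 fold change of -0.72 ± 0.39 (SE, edgeR adjusted p = 0.413). *Nop58*, *Gar1* and *Nip7* have their values above, so that genes with and without these motifs were among those whose Mdivi-1 libraries lay below both controls.

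The libraries of a group were not alike in every gene. Mdivi-1 replicate 1 was below both controls for 49 of the 67 genes, and Mdivi-1 replicate 2 for 45. Across the 67 genes, which are not independent replicates and share their libraries, the difference between the control libraries had a Pearson's r of 0.368 and a Spearman's rho of 0.402 with the log length of the transcript. Taken the same way, as replicate 1 minus replicate 2, the difference between the Mdivi-1 libraries had an r of -0.207 and a rho of -0.199. For the log2 fold change itself, r with length was 0.087 and with GC content -0.079.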

How the data were processed

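Late 2C embryos were measured by RNA-seq in 2 Mdivi-1 and 2 control libraries. The authors trimmed reads with cutadapt 1.16, mapped them with STAR to GENCODE M23 (mm10 in the submitters' processing notes) and counted them in exons with STAR's GeneCounts, which uses uniquely mapped reads. The deposited table holds these raw counts, the same values divided by a size factor as a signal, and the authors' DESeq2 comparison (log2 fold changes, Wald score and p-values), which was not used. It has 26022 genes, of which 32 have no symbol, and 0 per-sample columns without a sample.

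Raw counts were filtered with filterByExpr at a minimum count of 10, normalized by TMM and tested with the two-sided quasi-likelihood test of edgeR 4.0.16 (R 4.3.3), and p-values were adjusted by Benjamini-Hochberg over 14259 genes. Standard errors were worked back from this test. The likelihood ratio test of edgeR, DESeq2 1.42.0 and limma-voom (limma 3.58.1) were alternatives, as were other scalings and filters, a replicate block and leaving out each library. The biological coefficient of variation was 0.66, and TMM factors were 1.05 and 1.04 with Mdivi-1 and 1.10 and 0.834 in controls. DESeq2's missing adjusted p-values were left out of its counts.

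Genes, lists and tests were chosen with earlier results of these data known. The subunit complexes, the DESeq2 fits that leave out a library and the marker sums without the most abundant gene were added after seeing the values. Genes named in full were, in each role, the 3 with the smallest edgeR p, every gene called by DESeq2, every positive one and the paralogous pairs, and in each wider list the 2 with the smallest p. *Utp4*, *Nol11*, *Bop1*, *Pes1*, *Dkc1*, *Exosc2*, *Exosc10*, *Nop2*, *Tent4a*, *Ttc37* and *Rbm7* were named after their values were seen. Coordinates, exon lengths for TPM and overlaps are from GENCODE M21 on GRCm38. Start and end in the table equal that annotation for only 2 of the 67 genes. The lengths and overlaps may therefore differ from those of the annotation used for counting.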

Additional observations from a re-analysis of the deposited data

How the results depend on the processing

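The median log2 fold change of the 67 genes stayed negative in every alternative run, and every role apart from the genes matched by name kept a negative median. Scaling by library totals alone moved the median of all genes to 0.14 and that of the 67 genes to -0.47, still -0.61 apart. Some separations of single genes depended on the scaling. In TPM, without TMM, the groups overlapped for *Bop1*, *Ncl*, *Nhp2*, *Nol11*, *Nol12*, *Nop2*, *Rrp7a*, *Rrp8*, *Rrp9* and *Utp6*, unlike in CPM. They also overlapped for *Nol4l*, whose Mdivi-1 libraries were both above both controls in CPM. For *Fbl* and *Npm1* the groups overlapped in CPM but not in TPM. *Bop1* had 17.6 TPM in Mdivi-1 replicate 2 and 14.8 TPM in control replicate 2. Counts at an adjusted p under 0.05 depended on the test and the filter, and the cause was not tested. They were 7 of the 67 genes and 819 of all genes with no low-count filter, 11 and 867 by DESeq2, 1 and 202 by limma-voom, and 7 and 870 by edgeR's likelihood ratio test. With the replicate number as a block, 0 of the 67 genes passed, and 20 were lower at an unadjusted p under 0.05 (against 6.4% of all genes). The median was -0.61, and no adjusted call changed. No label states whether same-numbered libraries were paired. Their deviations had a correlation of 0.0081 across all genes tested. A single difference per group cannot settle whether they were paired. Leaving out each library in turn, which leaves a lone library assumed to vary like the other group, gave 0 to 12 of the 67 genes and 0 to 803 of all genes at an adjusted p under 0.05, the highest both without control replicate 1. At an unadjusted p it gave 10 to 24 lower and 0 to 1 higher of the 67 genes, and 550 to 1412 lower and 658 to 1699 higher of all genes. By DESeq2, 0 to 15 of the 67 were lower. The median was -1.10 to -0.27 for box C/D proteins, 0.29 to 1.13 for the genes matched by name and -0.073 to 0.21 for all genes. The sign turned in at least 1 alternative for 20 of the 67 genes, among them *Rrp12* (-1.04 to 0.53 with a library left out), *Nop53* (-0.997 to 0.25), *Nop14* (-1.496 to 0.14) and *Dkc1* (-0.65 to 0.15). *Exosc8* was at -0.01 under DESeq2 size factors (-0.0071), a 1 CPM filter over 2 libraries (-0.0059) and DESeq2 (-0.0070). *Utp25* was at -0.0070, -0.0079 and -0.0069 there, at -0.15 by limma-voom and at -0.12 with the replicate block. With library totals, *Nol3* was at 0.12 and *Utp14a* at 0.0022. With each library left out in turn, the ranges were -0.23 to 0.26 for *Exosc8*, -0.55 to 0.31 for *Utp14a*, -0.32 to 0.075 for *Utp14b*, -0.81 to 0.50 for *Utp25*, -2.76 to 0.86 for *Nol3* and -2.24 to 0.25 for *Nat10*. For the 31 fully named genes and the median of all genes, 324 values over the alternatives kept direction and side of the threshold, 37 passed it there only, and 23 turned sign. Replicate libraries differed by more than counting error, with a chi-square of 47.4 per degree of freedom for Mdivi-1 and 102 for control embryos, at depths of 17712075 to 20077326 counts.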
